A study of Rattus norvegicus with 12 samples.

Results

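The genes described here are 32 rat genes that make, move, store or export cholesterol, picked by symbol and matched to array probes through their transcript accessions. They comprise 8 genes of the mevalonate and isoprenoid steps, 11 of the squalene and sterol steps, 4 that control the transcription factor SREBP2, 5 of uptake and movement within the cell, and 4 of esterification and export. All 32 had a probe, and 31 entered the tests, out of 20359 genes or transcripts tested in all. The remaining gene, Mylip, encodes a ubiquitin ligase that degrades lipoprotein receptors, and its probe was above background on 0 of the 12 arrays. The probes of the other 31 were above background on every array, so none passed the filter on dim probes through 1 group alone.

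RNA came from primary hepatocytes of male Sprague Dawley rats, which had been cryopreserved, held in culture for 24 h and then treated for 24 h. The vehicle group received DMSO, and each of the other groups received 30 µM of a chlorinated diphenyl ether, with 3 single-colour Agilent arrays per group from separate experiments. The ethers were triclosan and diclosan, which both carry a phenolic hydroxyl, and 1-chloro-3-(4-chlorophenoxy) benzene, called CCPB below, which has none. Diclosan has fewer chlorine atoms than triclosan. The series sets triclosan beside structurally similar chemicals, the kind of comparison on which read-across of toxicity rests. The labels do not say whether the experiments used different rats or cell lots, so p-values measure the spread between these arrays only.

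Cells make cholesterol from acetyl-CoA through mevalonate, farnesyl diphosphate, squalene and lanosterol. When sterols in the endoplasmic reticulum are low, SCAP carries SREBP2 to the Golgi, where it is cut and released to switch on the synthesis genes, and when sterols are high, the INSIG proteins hold SCAP back. The liver also takes up lipoprotein cholesterol, stores it as ester, and secretes it into bile through the transporter pair ABCG5 and ABCG8, whose genes respond to the oxysterol receptor LXR.

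A level below is the log2 signal of a gene's brightest probe minus the 75th percentile of its array, and a difference is the difference between 2 group means of such levels. Levels of different probes are not compared. A gene is called changed where limma, fitted on all 12 arrays, gave an adjusted p below 0.05 after Benjamini-Hochberg adjustment over the 20359 features. Intervals are 95% and unadjusted. Between 51.6% and 55.5% of probes per array were above background, and 3 arrays per group limit the precision. The arrays lay on 2 slides, and slide 1 held all DMSO and triclosan arrays with diclosan replicates 1 and 2. Slide 2 held diclosan replicate 3 and all CCPB arrays. CCPB therefore shared no slide with DMSO or triclosan, and slide and compound can be told apart there only through the diclosan arrays. Values with the slide as a fixed block stand beside the CCPB results, and they rest on the diclosan arrays.

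All 8 hepatocyte markers were above background, with a summed linear level between 1803 and 1946 times the 75th percentile over the 12 arrays. Fewer markers of other liver cells passed the filter, 4 of 10 for macrophages, 6 of 10 for stellate cells and fibroblasts, 3 of 8 for endothelial cells and 3 of 6 for cholangiocytes. Among those that did not pass it were C1qa and Csf1r of macrophages, Lrat and Pdgfrb of stellate cells, Stab2 and Pecam1 of endothelial cells, and Krt19 of cholangiocytes. Summed levels of the cholangiocyte markers were 2.78 to 2.97 in DMSO and 3.51 to 3.57 in CCPB, and those of the endothelial markers 7.997 to 8.49 and 9.35 to 9.67. A single probe made up most of each of these sums, Epcam with 84.8% to 89.1% of the cholangiocyte sum and Vwf with 97.3% to 98.3% of the endothelial sum. For triclosan and diclosan the cholangiocyte sums were 2.78 to 3.24 and 2.79 to 3.06, and the endothelial sums 7.44 to 7.999 and 7.92 to 9.58. In diclosan the Vwf level was 3.05 and 2.96 on slide 1 and 3.24 on slide 2, beside 3.19 to 3.25 in CCPB. For Epcam the diclosan levels were 1.25 and 1.37 on slide 1 and 1.40 on slide 2, beside 1.59 to 1.63 in CCPB. The macrophage sums were 0.719 to 0.997 in DMSO, 0.771 to 1.03 in triclosan, 1.05 to 1.20 in diclosan and 0.930 to 1.05 in CCPB. The stellate sums overlapped among all 4 groups, from 1.49 to 2.63. The part of these markers in the differences below was not tested, and in bulk RNA fewer cells of a type and less RNA per cell cannot be told apart.

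Promoter windows of 250 bases before to 50 bases after the start were found in RefSeq (build GRCr8) for 26 of the 32 genes, and not matched for Pmvk, Fdft1, Sqle, Stard4, Scarb1 and Soat2. SREBP2 binds the sterol regulatory element, usually beside sites for NF-Y, which recognises the CCAAT box, or Sp1, which recognises the GC box. Both strands were searched. The CCAAT box, letters CCAAT, was in 20 of the 26 windows (76.9%) against 37.5% of all 33469 windows. The GC box, letters GGGCGG, was also in 20 (76.9%) against 33.1%. The 33469 windows were not limited to genes above background on these arrays, and a comparison with such genes alone was not made. The 9-letter element core TCACNCCAC was in 0 of 26 against 1.12%, and its form without the first letter, CACNCCAC, in 3 (11.5%) against 5.8%, with every match to the longer letters also counted as a match to the shorter. None of the 3 upstream CACNCCAC matches overlapped a CCAAT or GC box. The LXR repeat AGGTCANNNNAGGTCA was in 0 of 26 and in 2 windows overall. The stretches shown are those of the genes with an upstream CACNCCAC match and of those genes whose difference between diclosan and CCPB was called with the slide block and whose window held a CCAAT box. Capitals mark CACNCCAC or CCAAT, read on either strand.
Acat2 (chr1:50100743-50100770, plus strand): gtgaggaggcGTGGCGTGgaggccatag
Ebp (chrX:16971253-16971391, plus strand): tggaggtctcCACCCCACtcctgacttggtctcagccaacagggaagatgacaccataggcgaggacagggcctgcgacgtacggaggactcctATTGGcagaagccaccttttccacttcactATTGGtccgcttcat
Insig1 (chr4:8057948-8058010, minus strand): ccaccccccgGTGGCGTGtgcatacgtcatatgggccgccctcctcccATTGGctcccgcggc
Fdps (chr2:176804887-176804956, minus strand): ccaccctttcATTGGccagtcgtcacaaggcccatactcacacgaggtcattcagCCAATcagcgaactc
Hsd17b7 (chr13:84722765-84722940, minus strand): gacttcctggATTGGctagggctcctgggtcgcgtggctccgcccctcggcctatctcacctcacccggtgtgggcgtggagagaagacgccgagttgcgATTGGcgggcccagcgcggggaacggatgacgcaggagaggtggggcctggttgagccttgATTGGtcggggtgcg
Insig2 (chr13:35040145-35040169, minus strand): ccattgagacATTGGtctgcttcag
Lss (chr20:12118298-12118322, minus strand): tgatgctctgATTGGccgcgctcgc
All of these stretches end before the annotated start. A match describes the letters in the window and not a bound site.

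Against DMSO, the cholesterol genes lay slightly lower with triclosan and with diclosan without any of them being called, and CCPB raised 8 and lowered 3. With triclosan 0 of 31 were called by limma, where 0.0639% of all features were. With diclosan 0 were called, where 0.00982% of all features were. With CCPB 11 were called, where 28.3% of all features were, so the share of the cholesterol genes called was close to that background. Features called higher and lower with CCPB made up 14.3% and 14% of all. With the slide block 1 of the 11, Insig2, was called for CCPB against a background of 3.46%, and all 11 differences kept their sign. Leaving out diclosan replicate 3, the array that links the slides, gave 17 cholesterol genes called with CCPB and 7075 of all features, against 5757 with all arrays.

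**Figure D1:**
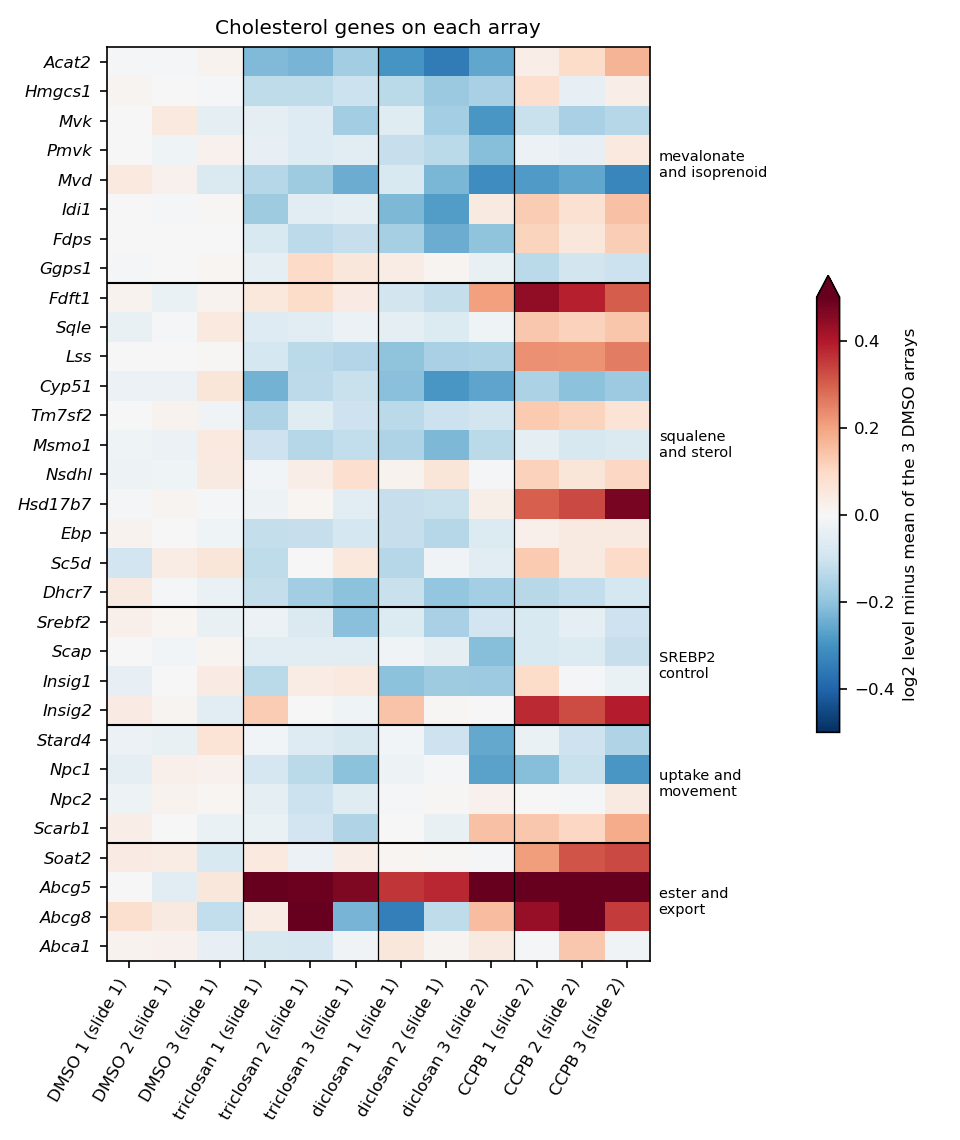
Log2 level of each of the 31 genes on each array minus the mean of the 3 DMSO arrays, by role (rows) and array with its slide (columns); colours saturate at -0.5 and 0.5. The synthesis genes are mostly blue in the triclosan and diclosan columns, and Lss, Hsd17b7, Fdft1, Insig2, Soat2 and Abcg5 are red in the CCPB columns.

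The small differences with triclosan and diclosan leaned one way across the synthesis enzymes. Of the 19 enzymes, 16 had a lower mean with triclosan than with DMSO and 17 with diclosan, with median differences of -0.11 and -0.16. Over all features the medians were -0.0056 and 0.0045, and 52.5% and 48% of features were below 0. All 3 triclosan arrays lay below all 3 DMSO arrays for 13 of the 19 enzymes, where 10.3% of all features did so. All 3 diclosan arrays did so for 12, where 7.39% of features did. At an unadjusted p under 0.05, limma found 10 enzymes lower and 0 higher with triclosan, and 12 lower and 0 higher with diclosan. Over all features 6.1% were lower and 5.49% higher at that level with triclosan, and 5.22% lower and 5.35% higher with diclosan. With p-values adjusted over all 6 comparisons of the groups together, 3 of the 31 genes were called lower with triclosan, where 1.86% of all features were called (378), and 8 with diclosan, where 1.5% were (305). Both comparisons use the same DMSO arrays, so they are not independent of each other. Median deviations of the enzymes from the DMSO mean were -0.10, -0.07 and -0.10 on the triclosan arrays and -0.12, -0.16 and -0.13 on the diclosan arrays.

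Acat2, the cytosolic thiolase that joins acetyl-CoA units at the head of the pathway, had the smallest adjusted p of all the cholesterol genes with both hydroxylated compounds. Its level was 4.49, 4.49 and 4.52 in DMSO, 4.28, 4.27 and 4.33 in triclosan, 4.21, 4.15 and 4.24 in diclosan, and 4.54, 4.59 and 4.67 in CCPB. The 4 groups did not overlap, with diclosan lowest and CCPB highest. The difference from DMSO was -0.21 (interval -0.30 to -0.12, adjusted p = 0.106 by limma) with triclosan and -0.30 (-0.39 to -0.21, adjusted p = 0.0624) with diclosan. It was 0.10 with CCPB (adjusted p = 0.0999), and 0.03 with the slide block. The other 3 Acat2 probes had the same signs against DMSO. With CCPB and without the slide block they differed by 0.12, 0.18 and 0.29. Their limma p, adjusted over all kept probes, was 0.0228, 0.0469 and 0.00594, so the missing CCPB call depends on the probe chosen.

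Hmgcs1, the enzyme that forms HMG-CoA, had levels of 6.34, 6.32 and 6.31 in DMSO, 6.20, 6.20 and 6.22 in triclosan, 6.19, 6.14 and 6.16 in diclosan, and 6.41, 6.28 and 6.36 in CCPB. Every triclosan and diclosan array was below every DMSO array, and the CCPB arrays overlapped DMSO. The differences from DMSO were -0.12 with triclosan, -0.16 with diclosan and 0.03 with CCPB (adjusted p by limma 0.249, 0.218 and 0.611). The slide block left the CCPB value at 0.03.

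Fdps, the synthase of farnesyl diphosphate, had levels of 6.93 on all 3 DMSO arrays. They were 6.85, 6.80 and 6.81 in triclosan, 6.76, 6.68 and 6.73 in diclosan, and 7.04, 6.98 and 7.05 in CCPB. No groups overlapped, in the same order as for Acat2. The difference from DMSO was -0.11 with triclosan (limma adjusted p = 0.262), -0.21 with diclosan (adjusted p = 0.0993) and 0.10 with CCPB (adjusted p = 0.0541; 0.09 with the slide block).

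Mvd, mevalonate diphosphate decarboxylase, went the other way with CCPB. Its levels were 2.86, 2.83 and 2.74 in DMSO, 2.67, 2.63 and 2.56 in triclosan, 2.73, 2.58 and 2.5 in diclosan, and 2.53, 2.55 and 2.49 in CCPB. All treated arrays were below all DMSO arrays. It fell by 0.29 with CCPB (interval -0.42 to -0.16, limma adjusted p = 0.00732), and the difference with the slide block was -0.13 (adjusted p = 0.509). The other mevalonate and isoprenoid genes were not called against DMSO. They are the kinases Mvk and Pmvk, the isomerase Idi1 and the geranylgeranyl diphosphate synthase Ggps1, and their differences lay between -0.17 (Mvk, diclosan) and 0.12 (Idi1, CCPB). With the slide block 2 of these genes changed sign for CCPB, Idi1 from 0.12 to -0.18 (interval -0.35 to -0.0096) and Mvk from -0.14 to 0.04, and the values for Pmvk and Ggps1 were 0.08 and -0.05.

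Of the 11 squalene and sterol enzymes 7 were called with CCPB, 5 higher and 2 lower, where 28.3% of all features were called. With the slide block 0 of them were called, where 3.46% of all features were. Lss, lanosterol synthase, which closes the sterol rings, had the smallest p among them. Its levels were 3.21, 3.20 and 3.21 in DMSO, 3.12, 3.07 and 3.06 in triclosan, 3.01, 3.04 and 3.05 in diclosan, and 3.44, 3.43 and 3.46 in CCPB. The hydroxylated compounds lay below DMSO and CCPB above it, with no overlap among the groups. Lss rose by 0.24 with CCPB (interval 0.17 to 0.30, limma adjusted p = 0.00048), and the slide block gave 0.21 (adjusted p = 0.0555). The differences with triclosan and diclosan were -0.12 (adjusted p = 0.166) and -0.17 (adjusted p = 0.117).

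Hsd17b7, a reductase that acts on sterol ketones, had levels of 0.72, 0.74 and 0.72 in DMSO, 0.70, 0.74 and 0.68 in triclosan, 0.61, 0.62 and 0.76 in diclosan, and 1.03, 1.06 and 1.20 in CCPB. CCPB stood above the other 3 groups, which overlapped each other. The diclosan array on slide 2 was 0.143 above the mean of the diclosan arrays on slide 1. It rose by 0.37 with CCPB (limma adjusted p = 0.00119), and the slide block gave 0.23 (adjusted p = 0.179).

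Fdft1, squalene synthase, had levels of 3.44, 3.39 and 3.44 in DMSO, 3.48, 3.52 and 3.47 in triclosan, 3.33, 3.31 and 3.63 in diclosan, and 3.87, 3.81 and 3.73 in CCPB. The diclosan array on slide 2 was 0.312 above the mean of the diclosan arrays on slide 1. Fdft1 rose by 0.38 with CCPB (limma adjusted p = 0.00668), and the slide block left 0.07 (adjusted p = 0.684). The triclosan difference was 0.06 and the diclosan difference -0.0013, neither called.

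Sqle, the squalene epoxidase, had levels of 4.31, 4.34 and 4.398 in DMSO, 4.29, 4.29 and 4.32 in triclosan, 4.30, 4.28 and 4.33 in diclosan, and 4.48, 4.46 and 4.49 in CCPB. It rose by 0.13 with CCPB (limma adjusted p = 0.0166), with all CCPB arrays above all others, and the slide block gave 0.09 (adjusted p = 0.441). Sqle was not called when CCPB replicate 3 or either of the first 2 DMSO arrays was left out. Tm7sf2, a sterol C14 reductase, had levels of 3.39, 3.40 and 3.37 in DMSO, 3.23, 3.33 and 3.28 in triclosan, 3.25, 3.28 and 3.29 in diclosan, and 3.52, 3.50 and 3.45 in CCPB. It rose by 0.10 with CCPB (limma adjusted p = 0.0462), and the slide block gave 0.07 (adjusted p = 0.574). This call was lost in 19 of 25 alternatives, 9 of which left out a single array. For Tm7sf2 both hydroxylated compounds lay wholly below DMSO and CCPB wholly above it.

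Cyp51, the lanosterol demethylase, had all treated arrays below all DMSO arrays. Its levels were 5.00, 5.00 and 5.09 in DMSO, 4.80, 4.90 and 4.92 in triclosan, 4.83, 4.74 and 4.77 in diclosan, and 4.88, 4.83 and 4.85 in CCPB. It fell by 0.18 with CCPB (limma adjusted p = 0.0141), with -0.17 under the slide block (adjusted p = 0.321), and was not called without DMSO replicate 3. The differences with triclosan and diclosan, -0.16 (adjusted p = 0.219) and -0.25 (adjusted p = 0.12), were not called. An adjusted p depends also on how many features pass in its comparison.

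Dhcr7, the reductase of 7-dehydrocholesterol, also fell by 0.12 with CCPB (limma adjusted p = 0.0424, slide block -0.10 with adjusted p = 0.495), and its differences with triclosan and diclosan were -0.17 and -0.16. The Dhcr7 call was lost in 16 of 25 alternatives, 8 of which left out a single array. Msmo1, which removes methyl groups from sterols, had levels of 6.12, 6.12 and 6.19 in DMSO, 6.04, 6.001 and 6.02 in triclosan, 5.99, 5.92 and 6.01 in diclosan, and 6.09, 6.06 and 6.07 in CCPB. Its differences of -0.12, -0.17 and -0.07 from DMSO were not called, and the last was -0.12 with the slide block. Ebp, a sterol isomerase, had levels of 5.84, 5.82 and 5.80 in DMSO, 5.70, 5.71 and 5.73 in triclosan, 5.70, 5.68 and 5.75 in diclosan, and 5.85, 5.87 and 5.87 in CCPB. Its differences from DMSO were -0.11, -0.11 and 0.04, none called, with -0.02 for CCPB under the slide block. The sterol dehydrogenase Nsdhl and the desaturase Sc5d were not called either, with differences between -0.07 and 0.09, and CCPB values of 0.14 and 0.06 with the slide block.

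**Figure D2:**
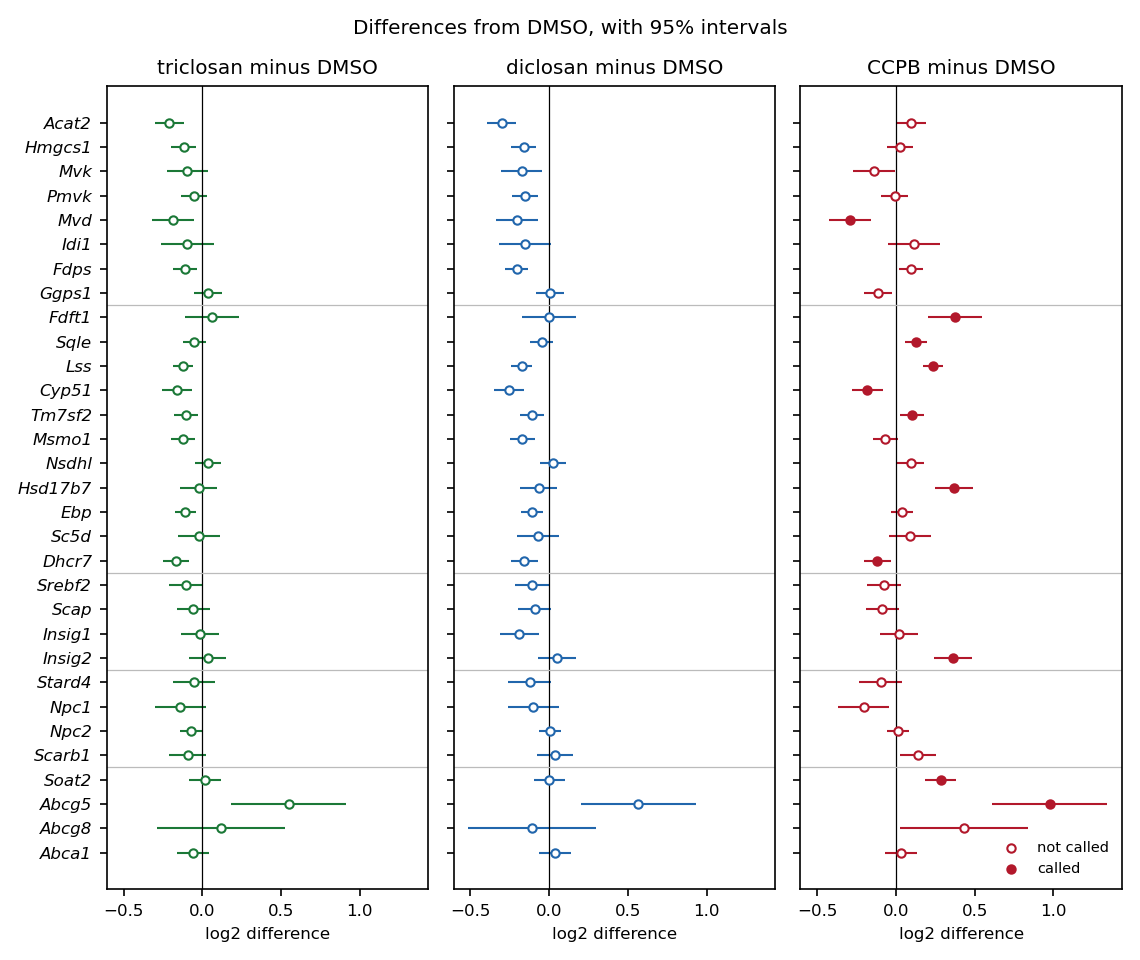
Log2 difference from DMSO of each of the 31 genes with its 95% interval, in 1 panel per compound; filled points passed an adjusted p of 0.05 by limma and lines separate the roles. Filled points are in the CCPB panel alone, 8 above 0 and 3 below, where 28.3% of all features were called.

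Among the 4 genes that control SREBP2, Insig2 was called with CCPB. INSIG2 retains SCAP in the endoplasmic reticulum. Its levels were 2.68, 2.65 and 2.59 in DMSO, 2.76, 2.64 and 2.62 in triclosan, 2.78, 2.65 and 2.64 in diclosan, and 3.01, 2.96 and 3.03 in CCPB. CCPB lay above the other groups, which overlapped, and diclosan replicate 3 on slide 2 was within them. Insig2 rose by 0.36 with CCPB (interval 0.25 to 0.48, limma adjusted p = 0.00123), and by 0.44 with the slide block (0.22 to 0.65, adjusted p = 0.0436). A second Insig2 probe differed by 0.48. Insig1, the paralog that is itself an SREBP target, differed by -0.02 with triclosan, -0.19 with diclosan and 0.02 with CCPB, none called, and the slide block gave 0.0062 for CCPB. Srebf2, which encodes SREBP2, and Scap had differences between -0.11 and -0.06 with the 3 compounds, none called. With the slide block the CCPB difference was -0.09 for Srebf2 and turned to 0.09 for Scap.

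Of the uptake and movement genes, none of the 4 tested was called against DMSO. Scarb1, the receptor that takes up cholesteryl ester from HDL, had levels of 2.55, 2.51 and 2.48 in DMSO, 2.48, 2.42 and 2.36 in triclosan, 2.52, 2.48 and 2.66 in diclosan, and 2.65, 2.62 and 2.70 in CCPB. The array of diclosan on slide 2 fell within the CCPB range and those on slide 1 within the DMSO range or just below it. Its differences were -0.09, 0.04 and 0.14, and the slide block changed the last to -0.02. Npc1, which moves cholesterol out of lysosomes, differed by -0.14, -0.10 and -0.20, and the CCPB value was 0.05 with the slide block. The lysosomal partner Npc2 and the sterol carrier Stard4 had differences between -0.12 and 0.01, and with the slide block the CCPB values were -0.0070 and 0.10.

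Of the 4 esterification and export genes 2 were called with CCPB, where 28.3% of all features were, and 0 with the slide block. Soat2, which esterifies cholesterol in liver and intestine, had levels of 1.42, 1.42 and 1.30 in DMSO, 1.43, 1.35 and 1.41 in triclosan, 1.39, 1.38 and 1.37 in diclosan, and 1.59, 1.69 and 1.71 in CCPB. CCPB lay above the other groups, which overlapped. Soat2 rose by 0.28 with CCPB (limma adjusted p = 0.00183), with 0.30 under the slide block (adjusted p = 0.0924). The differences with triclosan and diclosan were 0.02 and 0.0024.

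Abcg5, a subunit of the sterol exporter into bile, had the largest difference of the 31 genes with each compound. Its levels were -4.25, -4.31 and -4.19 in DMSO, -3.56, -3.76 and -3.78 in triclosan, -3.89, -3.87 and -3.28 in diclosan, and -3.40, -3.42 and -2.998 in CCPB. Every treated array was above every DMSO array. The Abcg5 probe was dim. It was above background on every array, but some probes of other genes at similar levels were not. The differences from DMSO were 0.55 with triclosan (interval 0.18 to 0.92, limma adjusted p = 0.248), 0.57 with diclosan (0.20 to 0.93, adjusted p = 0.302) and 0.98 with CCPB (0.61 to 1.34, adjusted p = 0.00258), a 1.97-fold rise for CCPB. The diclosan array on slide 2 was 0.599 above those on slide 1, and with the slide block the CCPB difference was 0.38 (adjusted p = 0.355). Abcg8, the other subunit, differed by 0.12, -0.11 and 0.43 with wide spread (SD of 0.402 among the 3 triclosan arrays), none called, and the CCPB value was 0.04 with the slide block. Abca1, which loads cholesterol onto apolipoprotein A-I, differed by -0.06, 0.04 and 0.04, the last being 0.02 with the block.

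**Figure D3:**
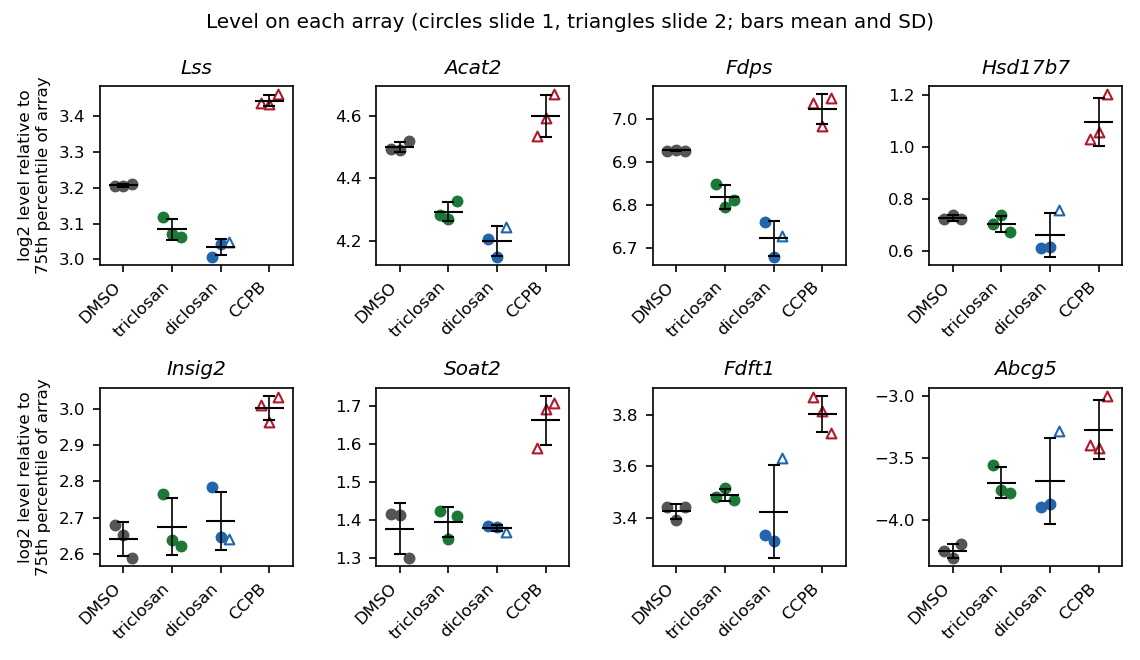
Log2 level of 8 genes on each array relative to the array's 75th percentile, with group mean and SD (n = 3); filled circles are slide 1 and open triangles slide 2. For Lss, Acat2, Fdps, Insig2 and Soat2 the diclosan array on slide 2 lies with or near the diclosan arrays of slide 1, whereas for Fdft1 and Abcg5 it lies apart, nearer the CCPB arrays. For Hsd17b7 it lies above the diclosan arrays of slide 1 and below the CCPB arrays.

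The compounds were then compared with each other at their common dose and time, in 3 pairs. With p-values adjusted over all 6 pairwise comparisons together, 0 genes were called between triclosan and diclosan, where 0.742% of all features were. Between triclosan and CCPB 12 genes were called, where 13.7% of features were, and between diclosan and CCPB 13, where 11.6% were. Triclosan and diclosan, which differ in their chlorine atoms, were not told apart by any cholesterol gene. Of the 31 genes 0 were called by limma, and of all features 0% were. At an unadjusted p under 0.05, 4 genes were higher and 2 lower with triclosan, where 3.46% and 3.37% of all features were. Differences ran from -0.13 (Scarb1) to 0.23 (Abcg8), and the smallest adjusted p was 0.588, for Insig1. The median half-width of the intervals was 0.101, and the intervals reached from -0.38 (Abcg5) to 0.63 (Abcg8), so differences of those sizes are not excluded for these genes. Acat2 was 0.09 higher with triclosan (interval 0.0011 to 0.18) and Fdps 0.10 higher (0.02 to 0.17). All 8 mevalonate and isoprenoid genes had a higher mean with triclosan, by 0.02 to 0.10, and with the slide block 7 of them did, none of them called. Over all features 55.5% had a lower mean with triclosan, and 54.6% with the block.

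Diclosan and CCPB, which differ in the hydroxyl group and in the placing of chlorine, differed at many of the cholesterol genes. With diclosan 14 of the 31 genes were lower than with CCPB and 0 higher, where 14.4% of all features were called, 6.27% lower and 8.1% higher. In all, 27 of 31 had a lower mean, with a median difference of -0.15 against -0.0011 over all features. With the slide block 7 of the 14 were called, against a background of 4.95%, of which 2.44% lower. These were Lss, Acat2, Fdps, Hsd17b7, Insig2, Soat2 and Pmvk. This is the pair that shares slide 2, through 1 diclosan array. Every block difference of this pair is therefore diclosan replicate 3 minus the mean of the CCPB arrays. Slide 2 alone gives these same differences and is no second result, with 27 of 31 below 0 and a median of -0.14. Without diclosan replicate 3 the pair shares no slide, and 20 of the 31 genes and 5444 of all features were called, against 2925 of all features with every array.

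Lss had the smallest p between diclosan and CCPB, with a difference of -0.41 (interval -0.48 to -0.35, limma adjusted p = 7.5e-05), and of -0.40 with the slide block (adjusted p = 0.00273). Acat2 differed by -0.40 (adjusted p = 0.000314), with -0.36 under the block (adjusted p = 0.00952), and its 4 probes all differed the same way. Fdps differed by -0.30 with and without the block (adjusted p = 0.0101 and 0.000452). These enzymes sit at the start, the branch point and the ring closure of the route. Hsd17b7 differed by -0.43 (adjusted p = 0.000822) and by -0.34 with the block (adjusted p = 0.0197). Insig2 differed by -0.31 (adjusted p = 0.00453) and -0.36 with the block (adjusted p = 0.0278), and Soat2 by -0.28 and -0.29 (adjusted p = 0.00324 and 0.0378).
Pmvk, phosphomevalonate kinase, differed by -0.15 (limma adjusted p = 0.0283) and by -0.20 with the block (adjusted p = 0.0385), and its call without the block was lost in the absence of diclosan replicate 2, CCPB replicate 1 or CCPB replicate 3.

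The other 7 genes called lower with diclosan than with CCPB were Tm7sf2 (-0.22), Sqle (-0.18), Hmgcs1 (-0.19), Fdft1 (-0.38), Ebp (-0.15), Insig1 (-0.21) and Idi1 (-0.27). None of these was called with the slide block. The calls for Idi1 and Insig1 were lost in 19 and 15 of 26 alternatives, 10 and 4 of which left out a single array. For Idi1 and Fdft1 the block reduced the difference to -0.07 and -0.17, and the diclosan array on slide 2 lay 0.295 and 0.312 above the others. Mvd, Cyp51, Dhcr7 and Msmo1 were not called, with differences of 0.08, -0.07, -0.04 and -0.10, and intervals reaching from -0.18 to 0.22.

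Triclosan against CCPB gave 12 of 31 genes lower and 1 higher, where 20.5% of all features were called, 11% lower and 9.48% higher. The 12 were Lss, Acat2, Hsd17b7, Insig2, Fdps, Tm7sf2, Soat2, Sqle, Ebp, Scarb1, Fdft1 and Hmgcs1. The gene that was higher was Ggps1, by 0.15 (limma adjusted p = 0.0303), whose second probe gave -0.07. The second Scarb1 probe gave -0.01, where the brightest gave -0.23. Lss differed by -0.36 (adjusted p = 0.000165) and remained the only gene called with the slide block, at -0.34 (adjusted p = 0.0266), where 1.41% of all features were called. Insig2 differed by -0.33 (adjusted p = 0.00354) and by -0.40 with the block (adjusted p = 0.0835), and Fdft1 by -0.32 (adjusted p = 0.0209) and by -0.0033 with it. No slide held both triclosan and CCPB. Leaving out a single array ended the call in 5 of 12 cases for Hmgcs1, 5 for Ggps1, 4 for Fdft1 and 2 for Scarb1, and without diclosan replicate 3 5638 of all features were called, against 4172 with every array. The comparisons with triclosan and with diclosan share the CCPB arrays.

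**Figure D4:**
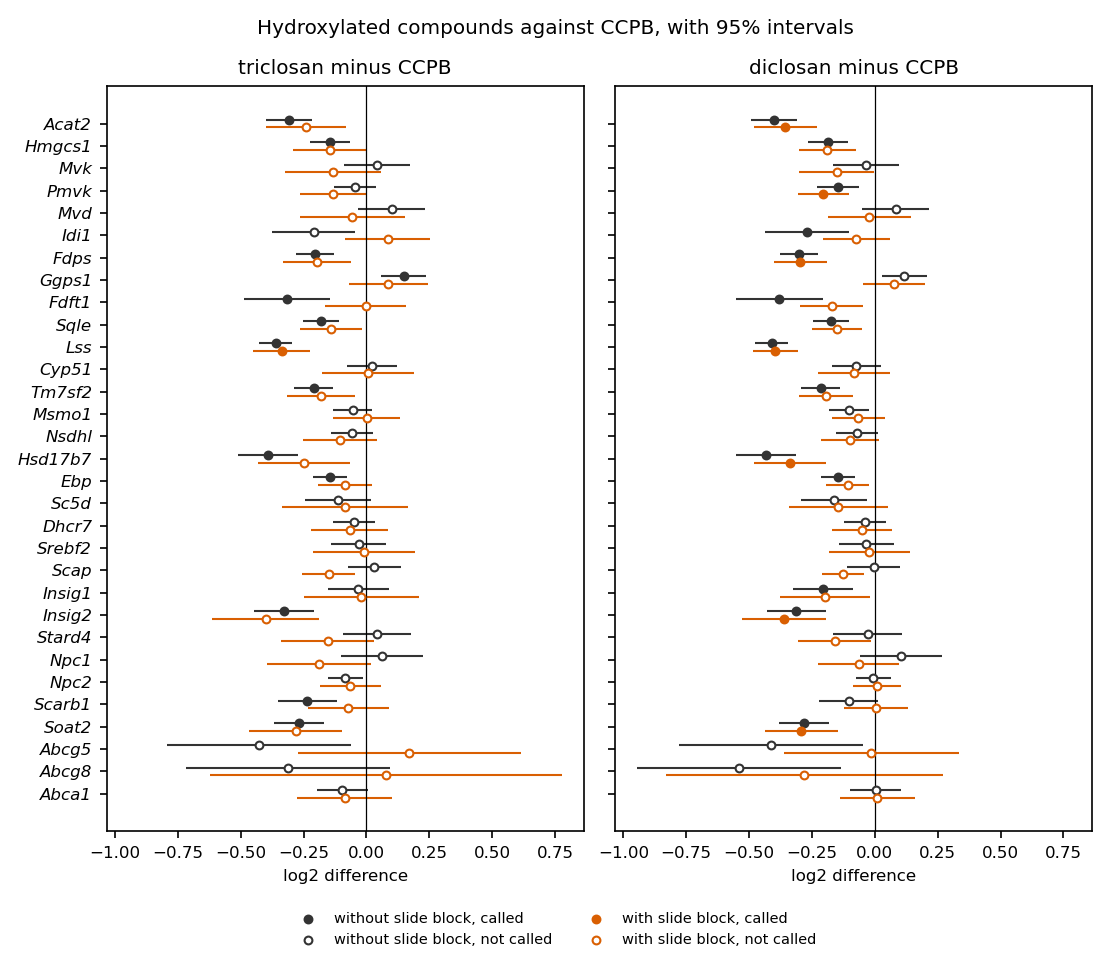
Log2 difference of triclosan (left) and diclosan (right) from CCPB for each of the 31 genes with 95% intervals, without (dark) and with (orange) the slide as a block; filled points passed an adjusted p of 0.05. Filled orange points number 1 on the left (Lss) and 7 on the right, and Fdft1, Idi1 and Abcg5 move towards or past 0 with the block.

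Other genes of the same pathways were counted by list. None was called against DMSO with triclosan or diclosan in any of these lists. Among these lists, that of electron donors held the largest call with the slide block. Por, the reductase that feeds electrons to CYP51 and squalene epoxidase, had levels of 3.62, 3.73 and 3.70 in DMSO, 3.82, 3.76 and 3.72 in triclosan, 3.82, 3.84 and 3.58 in diclosan, and 4.10, 4.15 and 4.02 in CCPB. It differed by 0.40 between CCPB and DMSO (limma adjusted p = 0.00297) and by 0.66 with the slide block (adjusted p = 0.00723). The diclosan array on slide 2, at 3.58, was below those on slide 1, at 3.82 and 3.84. The block adds that gap, which rests on 1 array, to the CCPB difference. Cyb5a rose and Cyb5b fell with CCPB, each without a call under the block. In all, 3 of the 4 listed genes were called, where 28.3% of all features were. With the block 1 of 4 was called, where 3.46% of all features were.

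Of 15 LXR and sterol handling genes tested, CCPB raised 4 (Nr1h3, Smpdl3a, Stard5 and Scp2) and lowered 1, Arl4c. Nr1h3, which encodes LXR alpha, had levels of 4.18, 4.18 and 4.12 in DMSO and 4.39, 4.45 and 4.41 in CCPB, with triclosan and diclosan between 4.17 and 4.21. It rose by 0.26 (limma adjusted p = 0.000463; slide block 0.23, adjusted p = 0.0552). Of 10 SREBP processing genes tested CCPB raised 2, Rnf139 and Erlin1, which take part in the sterol-driven breakdown of pathway proteins. Of 8 isoprenoid branch genes tested it raised 1, Dhdds, needed for dolichol. These counts, 5 of 15, 2 of 10 and 1 of 8, stood near or below the 28.3% of all features called with CCPB and are no result about the lists. None of these calls against DMSO held with the slide block.

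The fatty acid genes under the related factor SREBP1 were also compared between each hydroxylated compound and CCPB. With triclosan all 10 had a lower mean than with CCPB, where 51% of all features did, with a median difference of -0.13. Of these, 5 were called, where 20.5% of all features were, and 0 with the slide block, where 1.41% were. With diclosan all 10 also had a lower mean than with CCPB, where 50.3% of all features did. The median difference was -0.20, and 7 were called, where 14.4% of all features were. With the slide block 6 were called, where 4.95% of all features were. They were Acaca, Scd, Elovl6, Fads1, Fads2 and Acss2, which carry out steps from acetate activation to desaturation. With the block 9 of the 10 were below 0, where 48.2% of all features were. These block values rest on 1 diclosan array, replicate 3. Fads2 had levels of 0.27, 0.27 and 0.25 in diclosan and 0.47, 0.57 and 0.57 in CCPB, without overlap, and DMSO lay between 0.43 and 0.52. Against DMSO the median difference of these 10 genes was -0.11 with triclosan, -0.12 with diclosan and 0.07 with CCPB. Only Elovl6, a fatty acid elongase, was called there, higher with CCPB, so 1 of 10 against the 28.3% of all features.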

How the data were processed

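The 32 genes and the lists were chosen with earlier results of these data known. Groups came from the sample labels. Per the file headers, the authors scanned each array with Agilent Feature Extraction 10.7.1.1, and the deposited spot intensity, on a linear scale, had its background subtracted and its spatial trend removed within each array. The authors' deposited value table, a linear signal with the 75th percentile of each array at 1, served as an alternative. Per the labels, 100 ng of total RNA was labelled by the Low Input Quick Amp method.

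Spots flagged non-uniform were dropped (1 to 8 per array), spots of a probe were averaged as log2, and the 75th percentile was subtracted. Probes had to be well above background on all 3 arrays of a group, and the brightest probe stood for a gene. The model was limma 3.58.1 in R 4.3.3 by group (package data.table, version 1.17.8), checked on simulated data. Alternatives covered slide, replicate number, scaling, background correction, filter, probe choice, adjustment, arrays and source of values. The normexp correction (offset 50) used the median spot signal, because the mean signal was not in the files used here. Levels were given for up to 16 cholesterol genes, those with the smallest p among genes called in any comparison or among the 6 smallest against DMSO. Por, Nr1h3 and Fads2 were singled out after their values were seen.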

Additional observations from a re-analysis of the deposited data

How the results depend on the processing

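With the slide as a fixed block the counts of called cholesterol genes were 1 for CCPB against DMSO (11 without it), 1 for triclosan against CCPB (13) and 7 for diclosan against CCPB (14). As a random block (correlation 0.306) the first pair of counts became 5 and 7. Replicate block and slide block together gave 0, 0 and 4, and turned Fdft1 between triclosan and CCPB from -0.32 to 0.036 (adjusted p = 0.879 by limma). Median centring gave 7, 8 and 6, and no filter on dim probes 7, 7 and 8, in the same order. For diclosan against CCPB, the arrays of those groups alone gave 7 and slide 2 alone 0. Adjusting over all 6 comparisons gave 3 genes lower with triclosan and 8 lower with diclosan against DMSO. Normexp correction, and a filter on all 12 arrays, each gave 1 with diclosan against DMSO (Acat2, adjusted p = 0.0404 and 0.0477). The cause of these changes was not tested, beyond what a setting itself alters (fewer arrays, more features or another adjustment). Leaving out each array gave 8 to 17 for CCPB against DMSO (17 without diclosan replicate 3), 9 to 15 and 11 to 20 for triclosan and diclosan against CCPB, and 0 to 0 in the other 3 comparisons. The replicate block alone gave 0, 0 and 12 against DMSO (triclosan, diclosan, CCPB), 0 for triclosan against diclosan, and 13 and 13 against CCPB. Same-numbered arrays had correlations of deviations between -0.165 and 0.117, 1 of 18 over 0.1, and 2 of 12 arrays were closest to one of their own number, so the numbers were not taken as pairs. Over all features, calls between CCPB and DMSO numbered 5757, and 704 with the slide block. Between triclosan and CCPB 46.3% of all calls were higher, and 35.7% with median centring. The median difference of the 31 genes kept its sign in each comparison under every alternative. With 3 arrays per group, the number of arrays limits the precision.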
